A study of Homo sapiens with 29 samples.

Results

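DRB/TTchem-seq tables were analysed for the 1202 genes with a width of at least 60 kb and below 80 kb, 26.2% of the 4592 protein-coding genes that the authors listed. The members were chosen by the listed gene width alone, from 60017 to 79956 bp with a median of 68671.5 bp, and no measured signal entered the choice. The cells were HEK293, a human embryonic kidney cell line, infected for 4 days with lentivirus that carried either shCtrl, the control hairpin, or shTHOC5, a hairpin against the THO complex subunit THOC5. In all 8 libraries Pol II was held near promoters with 100 μM DRB for 3.5 h, the drug was washed out, and 1 mM 4SU labelled the new RNA. RNA was taken 10, 20, 30 and 40 min after release, with 1 library per hairpin and time. Each time point was 1 dish of cells with 1 hairpin per series. There were no replicates, so no test was made and no p-value is given. Intervals around shares are 95% Wilson intervals that cover counting error over genes only. The tables do not list THOC5, and its depletion was not checked here.

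DRB inhibits CDK9, the kinase that lets paused Pol II enter productive elongation, and on wash-out the polymerases start to move together as a wave of new transcription. THOC5 belongs to the THO complex, which binds nascent RNA and links its synthesis to its processing and export. At the end of a gene, Pol II passes the poly(A) signal, the RNA is cleaved a short distance downstream of it, and Pol II is released from the DNA some way beyond the cleavage site. The authors searched for the crest of the wave, the wave peak, in a window that begins 2 kb before the TSS of a gene and ends 120 kb after it. For a gene of this width class the window runs on for 40 to 60 kb past the gene end, by a median of 51.3 kb. A wave peak was therefore recorded as inside the gene, beyond the gene end, upstream of the TSS, or at the first position of the window. The first position is where the search began, and it lies 2 kb before the TSS.

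Sequence at the gene end is shown for 9 members, because the results turn on what lies on either side of it. The 30 last bases of each gene are written 5′ to 3′ in the sense direction from the GRCh38 genome, and capitals mark the poly(A) signal AATAAA or ATTAAA. The first 5 had every wave peak beyond the gene end, and the last 4 had every wave peak inside the gene and in order of time.
SLC5A10, chr17:19022566-19022595, plus strand: gctaagagtcgtgtttattgctcttgccct
ARHGEF2, chr1:155946851-155946880, minus strand: agggaaaATTAAAaacctggaactccataa
SPG7, chr16:89557737-89557766, plus strand: tactAATAAActgtgtagttggaaaatcta
AP1B1, chr22:29327680-29327709, minus strand: agagaaaatgAATAAAaatgatgacatcaa
PRKRIP1, chr7:102426647-102426676, plus strand: gagcacatgccctggctgtacattttgaaa
ELL, chr19:18442663-18442692, minus strand: tcattctccAATAAAtttcactgaactgaa
RTF1, chr15:41483534-41483563, plus strand: AATAAAtgttatgccattttaacaaaggga
USP10, chr16:84779893-84779922, plus strand: catcAATAAAaatcacaaagttggtttaaa
UBE2L3, chr22:21624005-21624034, plus strand: tgcccgtAATAAAaatgctctcagacactg

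Of the 1152 members whose listed width equals that of GENCODE release 44, 752 (65.3%) held one of these hexamers in the 30 last bases of the sense strand. The share was 66.8% of the 241 such members with the wave peak beyond the gene end in all 8 libraries and 66.2% of the 139 with the wave peak inside in all 8. Over all 4416 listed genes of matching width it was 65.1%. The share over all listed genes lay within both counting intervals, 60.6% to 72.4% and 58.0% to 73.5%.

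The coverage of the window is given once per series. Its median over the members was 161 RPM (reads scaled to the sum over the listed genes) in shCtrl and 176 RPM in shTHOC5. Over all listed genes the medians were 110 and 132 RPM. The coverage reached 100 RPM in 742 members of shCtrl, in 801 of shTHOC5 and in 723 of both. Because coverage was given over the whole window, it includes whatever lies past the gene end. The number of reads per library is not given, so the depth behind a single wave peak is unknown.

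Between 33.4% and 39.4% of the wave peaks of a library lay past the end of the gene they were assigned to. In shCtrl the wave peak was beyond the gene end in 430 members (35.8%, 33.1% to 38.5%) at 10 min, in 465 (38.7%) at 20 min, in 468 (38.9%) at 30 min and in 473 (39.4%, 36.6% to 42.1%) at 40 min. In shTHOC5 the counts were 401 (33.4%, 30.8% to 36.1%), 420 (34.9%), 441 (36.7%) and 456 (37.9%, 35.2% to 40.7%). The share thus rose by under 5 percentage points over 30 min in either series, and a similar part of the members was already beyond the end at the first time point. In genes 80 to 120 kb wide, whose window runs on for less than 40 kb, the wave peak lay beyond the end in 21.4% to 24.9% of shCtrl and 20.4% to 24.1% of shTHOC5. Per 1000 kb of window past the end, shCtrl had 7.06 to 7.76 such wave peaks in the members and 9.74 to 11.4 in these wider genes. In shTHOC5 these were 6.58 to 7.48 and 9.30 to 11.0. By length searched, with wave peaks at the last position counted, the members were thus lower. Within the members, the share at 40 min in shCtrl was 43.7% of those 60 to 65 kb wide and 32.9% of those 75 to 80 kb wide, and in shTHOC5 it was 44.8% and 29.1%.

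**Figure D1:**
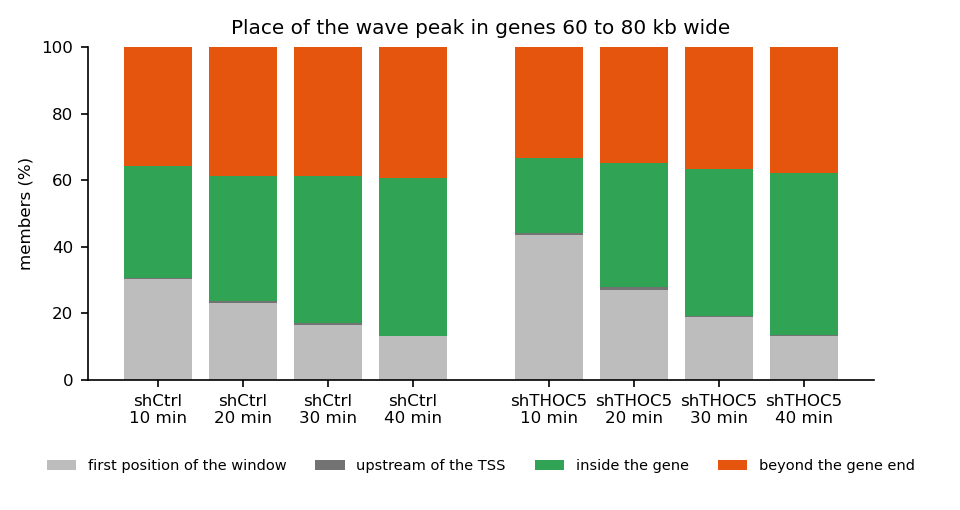
Stacked bars give the percentage of the 1202 members (y axis) with the wave peak at the first position of the window, upstream of the TSS, inside the gene or beyond its end in each of the 8 libraries (x axis, hairpin and min after release). The part beyond the gene end stays between 33.4% and 39.4%, while the part at the first position falls from 30.2% to 13.0% in shCtrl and from 43.3% to 13.1% in shTHOC5.

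With time, wave peaks left the first position of the window and more were found inside the genes. Wave peaks at the first position of the window fell from 363 to 277, 198 and 156 members in shCtrl and from 521 to 322, 225 and 158 in shTHOC5. Wave peaks inside the gene rose from 404 to 452, 530 and 570 in shCtrl, and from 270 to 448, 531 and 586 in shTHOC5. Among members that stayed inside the gene over a step, the wave peak moved downstream in 49.3% of 300, 73.1% of 376 and 64.8% of 435 in shCtrl over the 3 steps from 10 to 40 min, and in 69.6% of 207, 88.8% of 410 and 83.5% of 479 in shTHOC5. Among those that stayed beyond the end it did so in 49.2% of 362, 42.1% of 392 and 47.8% of 387 in shCtrl, and in 46.4% of 338, 43.7% of 387 and 39.9% of 396 in shTHOC5. Beyond the end, 62, 80 and 83 wave peaks in shCtrl and 56, 84 and 78 in shTHOC5 did not move over the step. A wave peak at the last position of the window cannot move downstream. The wave peak moved upstream in 33.7%, 37.5% and 30.7% of those beyond in shCtrl and in 37.0%, 34.6% and 40.4% in shTHOC5. The shares inside and beyond are thus not of like kind. The step inside had medians of -0.05, 1.97 and 1.28 kb in shCtrl and 1.53, 1.76 and 1.71 kb in shTHOC5. The median step beyond the end, with unmoved wave peaks counted, was 0 kb in all 6.

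Beyond the end, the wave peaks stood well clear of the gene. In shCtrl they lay a median of 27.9 kb past it at the first time and 31.4 kb at the last, and in shTHOC5 28.8 and 29.9 kb. Of the 408 such wave peaks in shCtrl at 10 min that could be placed on the annotation, 29 (7.11%) lay within 5 kb of the gene end, and at 40 min 20 of 450 (4.44%) did. In shTHOC5 these were 27 of 376 (7.18%) and 15 of 432 (3.47%). Some of the wave peaks beyond the end lay at the last position of the window, where the search ended, and they are part of the counts and medians above. These were 91 members in shCtrl at 10 min, 127 at 20 min, 121 at 30 min and 148 at 40 min, and 87, 102, 117 and 131 in shTHOC5.

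**Figure D2:**
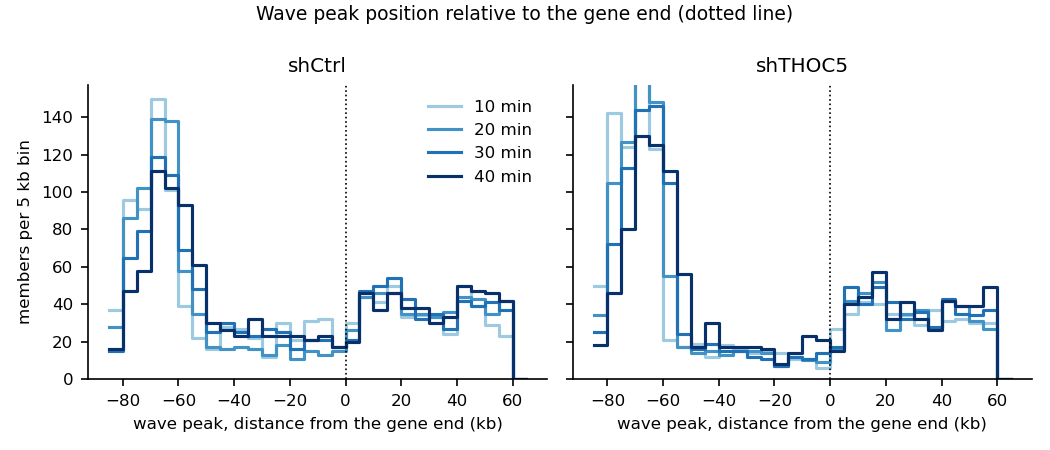
Number of members per 5 kb bin (y axis) against the distance of the wave peak from the gene end in kb (x axis, negative inside the gene, dotted line at the end), with 1 line per release time. The hump near the start of the genes shifts to the right with time in both series, while the counts to the right of the dotted line stay nearly level.

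Members differed in whether the wave peak kept to one side of the end. The wave peak was beyond the end at all 4 times in 311 members of shCtrl and 303 of shTHOC5, and 256 members (21.3%) were beyond it in all 8 libraries. In 149 members of shCtrl and 76 of shTHOC5 it went in and out of the gene end more than once. It was beyond the end at first and then not, through to 40 min, in 57 members of shCtrl and 63 of shTHOC5. It was not beyond the end at first and beyond it through to 40 min in 99 members of shCtrl and 117 of shTHOC5, 36 of them in both. Of the latter kind, 10 members in shCtrl and 6 in shTHOC5 had wave peaks in order of time that went from inside the gene at 10 min to beyond its end at 40 min. A single gene did so in both series, ENSG00000267127, which has no symbol and is 62743 bp wide. Its wave peak lay at 2.16, 81.1, 81.9 and 91.1 kb from the TSS in shCtrl and at 0.157, 80.8, 82.4 and 84.2 kb in shTHOC5. It thus crossed the gene in a single jump between 10 and 20 min. The wave peak was inside the gene at all 4 times in 249 members of shCtrl and 185 of shTHOC5, 145 of them in both, and it went from the start of the window into the gene in 172 and 307 members. In 103 members of shCtrl and 122 of shTHOC5 it never left the first position, and 82 were the same in both series.

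The 256 members beyond the end in all 8 libraries varied in how far apart their wave peaks lay. The gap between the lowest and the highest of the 8 wave peaks had a median of 6.33 kb and an upper quartile of 17.1 kb, and it was 5 kb or less in 104 members (40.6%). In 27 members all 8 wave peaks, and in 98 at least 1, were at the last position of the window, where the search limit bounds the gap. In the 145 members inside the gene in all 8 libraries this gap had a median of 11.3 kb and was 5 kb or less in 26 (17.9%).

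The 6 members of this kind with the highest coverage behaved in 3 ways. SLC5A10, a sodium-coupled sugar transporter with 6094 RPM in shCtrl, AP1B1, a clathrin adaptor subunit with 1669 RPM, and PRKRIP1 with 1267 RPM were at the last position in all 8 libraries. BAHCC1, a chromatin-associated protein, was at the last position in 6 libraries and at 117 and 118 kb from the TSS in shTHOC5 at 20 and 30 min. In SPG7, a mitochondrial protease gene of 67.0 kb, the wave peak in shCtrl lay at 71.8, 72.4, 71.7 and 71.6 kb from the TSS at 10, 20, 30 and 40 min. In shTHOC5 the SPG7 wave peak lay at 72.0, 72.8, 72.8 and 72.1 kb. It stood within RPL13, a ribosomal protein gene on the same strand, from 1.66 to 2.89 kb past the RPL13 start. In ARHGEF2, a guanine nucleotide exchange factor gene of 60.2 kb, it moved in steps from 75.4 to 75.5, 76.8 and 79.5 kb in shCtrl and from 74.5 to 76.0, 77.7 and 78.1 kb in shTHOC5. Every ARHGEF2 wave peak lay in KHDC4, the next gene on the same strand, which encodes a KH domain protein.

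The 300 bases around the median of the 8 wave peaks are shown for both genes, as an example of the sequence past the end of a member. They hold 2 of the 8 wave peaks of SPG7 and 0 of the 8 of ARHGEF2, which lie on either side. They are in the sense direction of the member on GRCh38, and capitals mark bases in an exon of the canonical transcript of the gene that lies there.
SPG7, in RPL13, chr16:89562601-89562900, plus strand: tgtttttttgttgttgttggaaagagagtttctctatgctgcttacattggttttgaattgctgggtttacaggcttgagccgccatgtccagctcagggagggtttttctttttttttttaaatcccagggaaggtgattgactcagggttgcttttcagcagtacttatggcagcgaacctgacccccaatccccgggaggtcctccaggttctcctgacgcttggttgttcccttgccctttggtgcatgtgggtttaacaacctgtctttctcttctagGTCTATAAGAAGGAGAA
ARHGEF2, in KHDC4, chr1:155930530-155930829, minus strand: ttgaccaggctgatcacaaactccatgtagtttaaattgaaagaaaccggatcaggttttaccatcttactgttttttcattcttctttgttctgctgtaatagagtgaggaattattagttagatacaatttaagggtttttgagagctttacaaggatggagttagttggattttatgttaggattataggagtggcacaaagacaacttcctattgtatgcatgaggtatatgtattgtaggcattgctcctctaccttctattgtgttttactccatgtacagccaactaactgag
The SPG7 stretch ends with 17 exon bases of RPL13 behind an intron, and the ARHGEF2 stretch is wholly intronic in KHDC4.

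Wave peaks beyond the gene end lay in other annotated genes more often than the ground there did. Of all bases between the gene end and the window end of the 1152 members that match the annotation, 60.5% are in another annotated gene and 50.5% in another protein-coding gene. Of the wave peaks beyond the end, 87.6% to 89.9% in the 4 shCtrl libraries and 87.4% to 89.6% in the 4 shTHOC5 libraries were in another gene. For protein-coding genes the ranges were 81.6% to 83.9% and 81.4% to 83.8%. The first 10 kb of protein-coding genes make up 14.3% of those bases, and they held 54.7% of the wave peaks beyond the end in shCtrl at 10 min and 42.9% at 40 min. In shTHOC5 these shares were 57.4% and 48.6%. The median distance of the wave peak from the start of the protein-coding gene that held it grew from 5.55 kb at 10 min to 6.54, 8.15 and 9.34 kb in shCtrl, and from 3.52 to 5.12, 6.61 and 8.08 kb in shTHOC5. Measured from the TSS of the member itself, the median wave peak beyond the end lay between 97.2 and 102 kb in shCtrl and between 97.8 and 99.9 kb in shTHOC5 at the 4 times, with no order in time.

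The share beyond the end was higher where more genes lay past it. Among the 256 members with no other protein-coding gene between the gene end and the window end, the wave peak was beyond the end in 16.8% of shCtrl at 10 min (12.7% to 21.9%) and in 19.1% at 40 min (14.8% to 24.4%). It was beyond in 33.5% and 37.9% of the 544 members with 1 such gene, in 48.5% and 52.0% of the 227 with 2, in 54.2% and 59.0% of the 83 with 3, and in 66.7% and 66.7% of the 42 with 4 or more. In shTHOC5 at 10 min the shares were 13.3%, 32.7%, 42.7%, 53.0% and 54.8%, and at 40 min 16.0%, 37.7%, 49.8%, 54.2% and 66.7%. The coverage of the window moved with the number of genes in it, with medians of 72.3, 145, 291, 333 and 656 RPM in shCtrl. Its part in this result was not tested. The members with at least 100 RPM in both series, of which 31.3% to 40.7% were beyond the end over the 8 libraries, were not split by that number. In the 97 members with no other annotated gene of any kind past the end, the share was 13.4% to 15.5% over the shCtrl libraries and 12.4% to 15.5% over the shTHOC5 libraries.

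**Figure D3:**
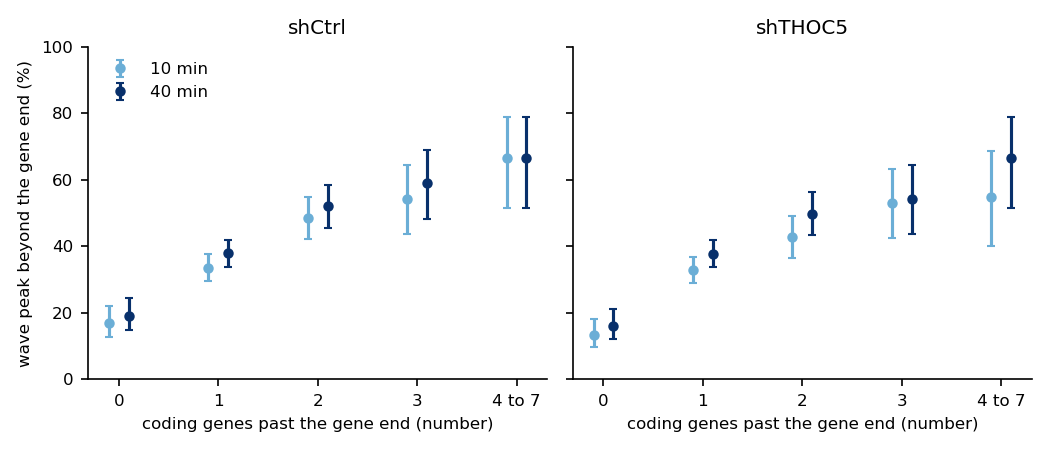
Percentage of members with the wave peak beyond the gene end (y axis, points with 95% Wilson intervals) against the number of protein-coding genes that reach into the window past the gene end (x axis), at 10 and 40 min in each series. The points rise from between 13.3% and 19.1% with no such gene to between 54.8% and 66.7% with 4 to 7.

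The direction in which these wave peaks moved followed the strand of the gene they lay in. All 4 wave peaks of a series lay in 1 protein-coding neighbour, and before the last position of the window, in 142 members of shCtrl and 145 of shTHOC5. Where the neighbour was on the same strand, the wave peak at 40 min was downstream of that at 10 min in 62 of 70 members of shCtrl and in 69 of 73 of shTHOC5. Where the neighbour was on the opposite strand, the wave peak at 40 min was upstream, closer to the member's own end, in 57 of 72 members of shCtrl and in 68 of 72 of shTHOC5. Over both series, the 55 members with such a same-strand neighbour in each included 47 that moved downstream in both, and the 52 with an opposite-strand neighbour included 43 that moved upstream in both. Counted from the start of the neighbour, the wave peak moved away from it in 88.6% and 79.2% of same- and opposite-strand cases in shCtrl and in 94.5% and 94.4% in shTHOC5. For comparison, 68.7% of the 249 members of shCtrl with all 4 wave peaks inside the gene moved downstream from 10 to 40 min, and 80.5% of the 185 in shTHOC5.

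Between the first and the last time the wave peak shifted by a median of 3.05 kb away from the start of a same-strand neighbour and 1.59 kb from that of an opposite-strand neighbour in shCtrl. In shTHOC5 the medians were 4.06 and 3.36 kb. At 10 min the wave peak in shTHOC5 lay a median of 2.61 kb into a same-strand neighbour and 3.37 kb into an opposite-strand one, against 3.75 and 5.67 kb in shCtrl. By 40 min the medians were 7.21 and 7.36 kb in shTHOC5 and 7.46 and 7.74 kb in shCtrl, so the medians were further apart at the first time than at the last. They are over partly different members in each series, with 55 same-strand and 52 opposite-strand members shared, and were not compared gene by gene. Genes 80 to 120 kb wide showed the same split, with 27 of 29 same-strand cases moving downstream and 20 of 27 opposite-strand cases moving upstream in shCtrl, and 37 of 38 and 28 of 28 in shTHOC5. The libraries were made with a ChIP-seq library kit, and whether reads were counted by strand is not given in the sources used here, so RNA of a member and of a gene on the other strand may not be told apart in the coverage.

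**Figure D4:**
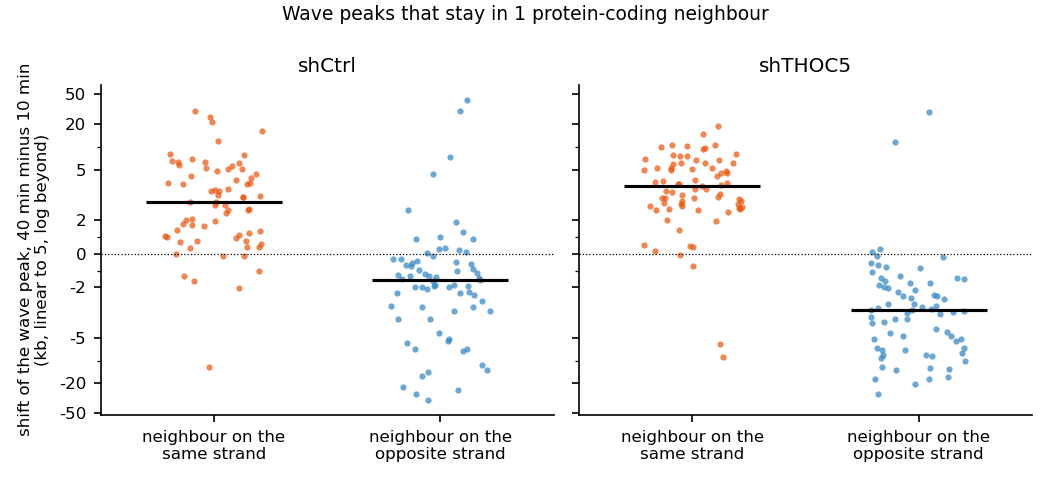
Shift of the wave peak from 10 to 40 min in kb along the direction of the member (y axis, linear to 5 kb and logarithmic beyond) for members whose 4 wave peaks lie in 1 protein-coding neighbour, by the strand of that neighbour relative to the member (x axis). Each point is 1 member and the bar is the median, and most points lie above 0 for same-strand and below 0 for opposite-strand neighbours in both series.

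Some of these neighbours are wide enough to be listed genes, so their own wave peak could be set beside that of the member. This gave 264 wave peaks in 56 pairs on the same strand, with a median gap of 3.34 kb between the positions in the genome, and 60 of them (22.7%) were within 1 kb. On the opposite strand, 217 wave peaks in 66 pairs were a median of 61.8 kb apart, and 46 (21.2%) were within 1 kb. The median gaps of the strands cannot be compared on like terms. An opposite-strand neighbour is met from its end, which can lie past the 120 kb that its own search covers. In shCtrl at 10 min, for example, the GLP2R wave peak lay 282 kb from the start of GAS7. LRP4, a receptor of the LDL receptor family, lies upstream of CKAP5, a microtubule-binding protein gene on the same strand. In shCtrl the LRP4 wave peak lay 2.79, 5.53, 6.99 and 27.6 kb past the CKAP5 start at the 4 times, and the wave peak called for CKAP5 itself lay at the first position of its window and then at 3.71, 5.64 and 27.6 kb. In shTHOC5 the LRP4 wave peak lay 2.42, 4.01, 5.14 and 7.05 kb into CKAP5, and that of CKAP5 itself lay at the first position and then at 1.21, 3.37 and 5.35 kb. Both calls thus jumped to the same place, 0.026 kb apart, in the shCtrl library at 40 min.

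The 4 wave peaks were in order, each one downstream of the last, in 158 members of shCtrl (13.1%), against 13.2% of all listed genes. In shTHOC5 they did so in 349 members (29.0%), against 31.3% of all listed genes. The members were thus in order about as often as the rest of the table, and 101 were in order in both series. At 40 min the wave peak was beyond the end in 62 of the 158 in shCtrl and 89 of the 349 in shTHOC5, and all 4 were inside the gene in 47 and 104. The authors' filters kept 67 members for a rate in shCtrl (5.57%, against 4.92% of all listed genes) and 131 in shTHOC5 (10.9%, against 10.0%), with 33 in both. Only part of the kept members had a wave that was read in their own gene. All 4 wave peaks were inside the gene in 32 of the 67 in shCtrl and 83 of the 131 in shTHOC5, and all 4 were beyond it in 30 and 46.

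The deposited rate differed along the same line, with overlap in shCtrl. Kept members with all wave peaks inside the gene averaged 0.658 ± 0.454 kb/min (SD between members, n = 32) in shCtrl and 0.574 ± 0.366 kb/min (n = 83) in shTHOC5. Kept members with all wave peaks beyond the end had 1.88 ± 0.297 kb/min (n = 30) and 1.91 ± 0.293 kb/min (n = 46). Their rates ran from 1.36 to 2.50 kb/min in shCtrl and from 1.46 to 2.49 kb/min in shTHOC5. Rates of the kept members inside ran from 0.150 to 1.60 kb/min in shCtrl and from 0.165 to 1.39 kb/min in shTHOC5. The ranges thus overlapped in shCtrl. The deposited rate is the least-squares slope over 5 points, the 4 wave peaks counted from the window start and a point at position 0 at 0 min. A wave peak that stands far from the TSS at all 4 times therefore has a high rate even where it does not move. SLC5A10, at the last position in all 8 libraries and not kept, has 2.44 kb/min in both series. The difference in rate between kept members inside and beyond is thus partly set by the fit and is no separate result. In the members beyond the end, the first wave peak already lay 83.2 ± 11.0 kb from the TSS at 10 min in shCtrl, and over the next 30 min it shifted by a median of 4.19 kb. In shTHOC5 these values were 84.1 ± 11.0 kb and 4.95 kb. The slope over the 4 release times without the point at 0 min had a median of 0.136 kb/min in shCtrl and 0.161 kb/min in shTHOC5 in these members, and 0.200 and 0.209 kb/min in those with all wave peaks inside.

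**Figure D5:**
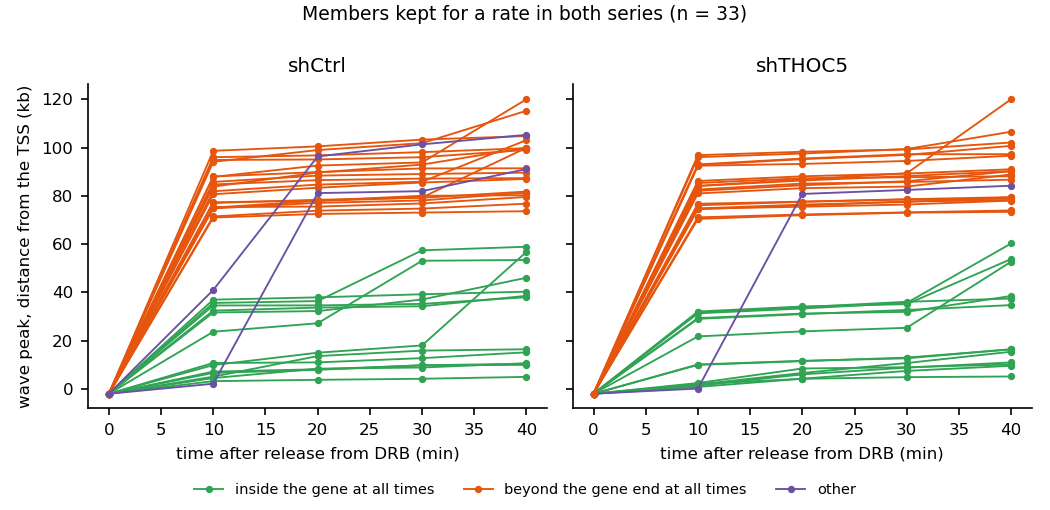
Wave peak position in kb from the TSS (y axis) against the time after release in min (x axis) for the 33 members kept in both series, 1 line per member, each drawn from the window start at 0 min as in the deposited fit. The 18 members beyond the gene end at all times in both series are past 70 kb by 10 min, and most of their lines then run nearly level.

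Of the 30 kept members of shCtrl with all wave peaks beyond the end, 25 had all 4 in 1 protein-coding neighbour on the same strand, 1 (ZCCHC24) in a neighbour on the opposite strand, 3 (CILK1, LDB3 and PDPK1) in several genes or none, and 1 (SPPL2A) had a width that differs from the annotation. In shTHOC5, 40 of 46 had 1 same-strand neighbour. Counted from the start of that neighbour, with the start at 0 min, the slope had a median of 0.197 kb/min (0.0445 to 0.866) in the 25 of shCtrl and 0.192 kb/min (0.0822 to 0.859) in the 40 of shTHOC5, where the median deposited rates were 1.86 and 1.86 kb/min. The filters stated in the methods concern coverage and the first wave peak, and neither the gene end nor order in time is named among them. The members kept in both series nevertheless all had wave peaks in order. In shCtrl, with all 4 wave peaks in 1 neighbour, 30 of 70 same-strand and 3 of 72 opposite-strand cases were in order. In shTHOC5 these were 47 of 73 and 1 of 72. The strand split of the kept members is thus tied to their order.

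The 4 fastest members with a symbol that were kept in both series had a wave peak beyond the end. ENSG00000267127, which has none, had 2.66 kb/min in shCtrl and 2.55 kb/min in shTHOC5. ACSL1, a long-chain acyl-CoA synthetase, had 2.75 kb/min in shCtrl and 2.20 kb/min in shTHOC5. Its wave peak lay at 41.0 kb in the gene at 10 min in shCtrl and then at 96.3, 101 and 105 kb, in the downstream gene CENPU. In shTHOC5 it lay in CENPU throughout, 3.33, 4.82, 6.67 and 13.8 kb past the CENPU start. ZNF341, a zinc finger transcription factor, had 2.50 and 2.49 kb/min with the wave peak in CHMP4B, a subunit of the membrane-sealing ESCRT machinery. The ZNF341 wave peak lay 8.13, 12.8, 14.1 and 40.3 kb past the CHMP4B start in shCtrl and 4.37, 7.12, 9.62 and 40.3 kb past it in shTHOC5, and the last position is the window end in both. DNAJC16, a J domain protein, had 2.42 and 2.10 kb/min, with the wave peak 3.44, 8.31, 11.2 and 24.6 kb into DDI2 in shCtrl and 2.10, 4.54, 6.29 and 10.0 kb in shTHOC5. DENND6A, a Rab exchange factor, had 2.18 and 2.11 kb/min, with the wave peak 3.77, 5.61, 8.41 and 9.88 kb into ARF4 in shCtrl and 1.97, 3.38, 4.36 and 7.21 kb in shTHOC5. In DNAJC16 and DENND6A each of the 4 wave peaks of shTHOC5 was closer to the neighbour's start than that of shCtrl. Counted from the neighbour's start, the slopes were 0.569 and 0.243 kb/min for DNAJC16 and 0.244 and 0.168 kb/min for DENND6A.

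Slow members kept in both series had their wave peaks inside their own gene. USP10, a deubiquitinase, went from 7.18 to 9.97 kb in shCtrl and from 2.45 to 10.2 kb in shTHOC5, with 0.265 and 0.309 kb/min. CLINT1, which binds clathrin, went from 6.64 to 10.4 kb and from 1.34 to 11.0 kb, with 0.280 and 0.334 kb/min. AXIN1, a scaffold of the β-catenin destruction complex, went from 4.51 to 10.6 kb and from 0.836 to 9.59 kb, with 0.297 and 0.298 kb/min. In these 3 genes the first wave peak of shTHOC5 was closer to the TSS than that of shCtrl, and the deposited rate was higher in shTHOC5 by a ratio of 1.00 to 1.19.

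The ratio of the rate in shTHOC5 to that in shCtrl had a median of 0.971 over the 33 members kept in both series and was below 1 in 24. In the 77 wider genes kept in both it was 0.940. The 18 members with all 8 wave peaks beyond the end had a median ratio of 0.981, within a range of 0.796 to 1.01, and 15 were below 1. In the 13 with all 8 inside it was 0.959, from 0.314 to 1.38, and 7 were below 1. Without the point at 0 min, the ratio of the slopes had a median of 0.812 in the 18 beyond the end, with 11 below 1, and of 1.56 in the 13 inside, with 4 below 1 (RTF1, UBE2L3, ENSG00000249319 and ENSG00000289694). In the 13 inside the gene the direction of the ratio therefore depended on that point. For the 17 members with 1 neighbour holding all the wave peaks in both series, the ratio was 0.794 from the neighbour's start and 0.981 as deposited, and 14 were below 1 on either scale.

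The largest falls were RTF1, ACSL1 and LRP4. LRP4 and RTF1 jumped at 40 min in shCtrl alone, and ACSL1 started inside its gene in shCtrl alone. RTF1, which acts with the Paf1 elongation complex, had 1.26 kb/min in shCtrl and 0.395 kb/min in shTHOC5, a ratio of 0.314. Its wave peak lay at 9.88, 15.0, 18.0 and 56.8 kb in shCtrl and at 10.1, 11.6, 12.7 and 16.5 kb in shTHOC5. The largest rises were AZIN1, CLINT1 and USP10. AZIN1, the antizyme inhibitor of polyamine metabolism, had its wave peak at 32.4, 33.7, 34.3 and 38.6 kb in shCtrl and at 32.1, 34.1, 35.1 and 53.8 kb in shTHOC5, with 0.830 and 1.15 kb/min. UBE2L3, a ubiquitin-conjugating enzyme, jumped from 27.2 to 53.1 kb between 20 and 30 min in shCtrl and from 25.3 to 52.7 kb between 30 and 40 min in shTHOC5. ELL, an elongation factor of Pol II, moved through 5.07, 13.6, 15.9 and 16.4 kb in shCtrl and 1.86, 6.60, 10.7 and 15.4 kb in shTHOC5, closer to the TSS upon THOC5 depletion at each time, and had 0.477 and 0.437 kb/min.

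Against shCtrl, shTHOC5 had its wave peak nearer the TSS by over 2 kb in 407 members at 10 min (33.9%, against 37.4% of all listed genes) and farther by over 2 kb in 187 (15.6%, against 14.8%). At 20 min it was nearer in 371 (30.9%, against 34.0%) and farther in 172 (14.3%, against 15.9%). At 30 min it was nearer in 437 (36.4%, against 40.8%) and farther in 210 (17.5%, against 18.0%), and at 40 min nearer in 410 (34.1%, against 34.7%) and farther in 250 (20.8%, against 24.2%). The members were thus near the background of the table at each time. The median difference over the members was 0, 0, -0.16 and -0.01 kb at the 4 times.

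A shift towards the TSS was seen among the wave peaks inside the gene. Where both series had the wave peak inside, shTHOC5 minus shCtrl had a median of -2.23 kb over 209 members at the first time, then -1.27 kb over 340, -1.79 kb over 420 and -1.31 kb over 485, and shTHOC5 was nearer by over 2 kb in 51.7%, 40.0%, 49.0% and 42.3% of them. Where it was beyond the end in both, the median difference was 0 kb at each time, and it was nearer by over 2 kb in 18.7%, 17.9%, 20.7% and 23.1% of 326, 368, 372 and 390 members. In genes 80 to 120 kb wide with the wave peak inside in both, the medians were -1.85, -1.39, -2.17 and -1.24 kb. Over the same 4 times, the median wave peak of the members inside the gene went through 27.1, 7.99, 12.6 and 13.4 kb in shCtrl and 19.2, 4.95, 6.57 and 9.23 kb in shTHOC5, so in both series it lay farther out at 10 min than at 20 min.

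By the last time, 50 members had the wave peak inside the gene in shCtrl and beyond its end in shTHOC5, and 61 members the reverse. The 5 named here crossed the end in at least 1 of the series. OSBPL11, an oxysterol-binding protein gene, was at the first position at 10 and 20 min in shCtrl, at 85.2 kb at 30 min and back at 7.13 kb at 40 min, and in shTHOC5 it left the first position at 40 min for 83.4 kb. ZNF280C was at 108, 108 and 112 kb, in AIFM1, and then at 16.2 kb in shCtrl, and went from 2.42 to 109 kb between 30 and 40 min in shTHOC5. In the other direction GCN1, an activator of the kinase GCN2, lay at 93.1 kb in shCtrl and 8.04 kb in shTHOC5 at 40 min. STAU1, a double-stranded RNA-binding protein, lay at 63.4, 8.87, 22.7 and 120 kb in shCtrl and at 0.022, 5.79, 7.40 and 9.07 kb in shTHOC5. CRAMP1 lay at 73.8, 14.7, 72.8 and 78.4 kb in shCtrl, 3 of them in its neighbour JPT2, and after the first position at 6.42, 10.6 and 18.1 kb in shTHOC5.

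Gene groups taken by symbol differed in the share beyond the end. Of the 40 members of the chromatin and RNA processing group, 6 were beyond the end at 10 min in shCtrl (15.0%) and 7 in shTHOC5 (17.5%), against 35.8% and 33.4% of all members. HNRNPC, an abundant nuclear RNA-binding protein of this group with 4075 RPM in shCtrl, was at 45.8, 6.21, 8.17 and 11.0 kb in shCtrl and at 1.72, 4.41, 5.47 and 8.72 kb in shTHOC5. TAF12, a subunit of TFIID, stayed at the first position in all 8 libraries. Of the 26 small GTPases and their regulators, 15 (57.7%) and 11 (42.3%) were beyond the end at 10 min, and of the 19 ion channels and neurotransmitter receptors 12 (63.2%) and 11 (57.9%). Coverage differed between the groups, with 4 of the 19 channels and receptors, 20 of the 26 GTPases and 36 of the 40 chromatin and RNA processing members at 100 RPM or more in shCtrl, and its part in the shares was not tested. Among the channels and receptors, ITPR3, an inositol trisphosphate receptor channel, was at 84.8, 87.6, 85.6 and 86.1 kb in shCtrl and at 89.7, 89.7, 89.1 and 87.4 kb in shTHOC5, past its end at 76.2 kb. The potassium channel KCNC4 of the same group stayed inside or at the first position.

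The other groups lay between. Among the 34 zinc finger factors, 11 were beyond the end at 10 min in shCtrl and 9 in shTHOC5, and CTCF, the insulator-binding factor, was at 2.60, 96.3, 52.2 and 53.7 kb in shCtrl. ZNF273 stood between 40.3 and 45.4 kb in all 8 libraries. Of the 40 solute carriers and ABC transporters 14 and 16 were beyond the end. ABCA3, a lipid transporter of 64.9 kb, went through 76.1, 78.0, 78.5 and 79.2 kb in shTHOC5, 11.2 to 14.3 kb past its end, and lay 13.1 to 15.2 kb past it in shCtrl. Of the 24 protein kinases 9 and 7 were beyond the end. Among them NEK4 stood between 80.8 and 83.2 kb from the TSS, past its end at 62.5 kb. FGFR1 was beyond the end only in shTHOC5 at 10 min, at 87.4 kb. Of the 41 ubiquitin ligases and deubiquitinases 14 and 13 were beyond the end. CAND2, named with them by its symbol pattern, stood between 41.0 and 41.9 kb in all 8 libraries.

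Of the study's genes with a rate, 11 of the THOC5-dependent class and 16 of the independent class were members. The study chose both classes, and it did so with a rate in control cells, so that being in order in shCtrl is part of the choice. The wave peak was beyond the end at 10 min in shCtrl in 1 of the 11 and 6 of the 16, and at 40 min in 2 and 9. The study's whole classes, without the need for a rate, had 70 dependent and 8 independent members, and there the wave peak was beyond the end in 14 (20.0%) and 1 (12.5%) at 10 min and in 21 (30.0%) and 1 (12.5%) at 40 min. The dependent class thus had the lower share among genes with a rate and the higher share in the whole classes, where the independent share is 1 member of 8. Over all members the share in shCtrl was 35.8% at 10 min and 39.4% at 40 min, above both whole classes. A slow dependent member in shCtrl was VAPB, an endoplasmic reticulum anchor protein, at 0.195 kb/min and inside the gene. The fastest were TARS3, a threonyl-tRNA synthetase, at 1.61 kb/min, and ACLY, the citrate lyase that supplies cytosolic acetyl-CoA, at 1.60 kb/min. The TARS3 wave peak lay at 72.7, 75.7, 76.4 and 76.9 kb from the TSS, past its end at 70.9 kb. The ACLY wave peak at 40 min lay at 71.6 kb from the TSS, past its end at 63.6 kb. Of the independent class, NUP58 of the nuclear pore and RFC1 of the clamp loader were slowest, at 0.221 and 0.335 kb/min and inside the gene. TFCP2, a transcription factor that the whole classes list as dependent, was fastest, at 3.11 kb/min with the wave peak at 2.03 kb at 10 min and then at 93.6, 96.6 and 106 kb, past its end at 79.5 kb, followed by ACSL1. The fastest rates of both classes thus came from genes with a wave peak beyond the end. DHX15, an RNA helicase named in the study, moved from the first position at 10 min to 0.317, 3.24 and 4.88 kb in shCtrl and to 1.26, 3.62 and 5.09 kb in shTHOC5, inside the gene from 20 min on.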

How the data were processed

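The tables cover 8 DRB/TTchem-seq libraries of HEK293 cells, 4 release times for shCtrl and 4 for shTHOC5, and 1 library per hairpin and time. The authors normalized read coverage to sequencing depth, called 1 wave peak per gene and time in the window from 2 kb before to 120 kb after the TSS, and deposited the positions in bp, a rate in kb/min and a mark for the genes kept by their filters. The submitters' processing notes name GRCh38, Bowtie2 2.3.4.1, minimap2, CASAVA 1.8.2 and deepTools 2.0. Which of them served these libraries is not given in the sources used here. The deposited coverage column is named for RPKM, but it sums to 1000000 in each series and was read as RPM. The deposited rate equals the least-squares slope refitted over the 4 wave peaks and a point at 0. The methods state that genes below 100 RPM, or with the wave peak before 2 kb at 10 min, were left out. That limit is not 2 kb past the TSS, since AXIN1 was kept in shTHOC5 with a first wave peak 0.836 kb past it. Order in time is not among the stated filters, but the 33 members kept in both series were all in order. SPG7, with 1374 RPM and its wave peak at 71.8 kb at 10 min in shCtrl, was out of order and not kept. Depth per library is unknown.

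Wave peak positions were expressed in kb relative to the TSS. GENCODE release 44 placed wave peaks on GRCh38 for the 1152 members whose width it matches. A neighbour is a protein-coding gene that holds the wave peak, and where several did, the one with the nearest start was taken. The members and gene lists were chosen with earlier results of these data known. Genes were named by fixed rules: those the study names, the slowest and fastest kept members, the largest changes of the rate, and the members of highest coverage of each pattern, class and group. LRP4 is also named for its listed neighbour, and members behind some of the counts of 5 or fewer are named, both chosen after their values were seen. Some genes the rules name are not reported here. The functions were tested on simulated positions. Python 3.11.15, numpy 2.4.6, pandas 2.3.3, scipy 1.17.1 and matplotlib 3.10.9 were used. Alternatives changed the gene end, the members, the release times and the origin of the slope.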

Additional observations from a re-analysis of the deposited data

How the results depend on the processing

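No paired analysis was possible because the labels carry no replicate numbers and no result comes from a test. The series share their release times, within which differences are given, and the times were not taken as replicates. The share beyond the gene end stayed within its counting interval in all 8 libraries with the end moved 5 kb downstream (31.1% to 37.7%), at 100 RPM or more in both series (31.3% to 40.7%) and at widths of 65 to 75 kb (34.7% to 39.5%). Without wave peaks at the first position it was 51.3%, 50.3%, 46.6% and 45.2% in shCtrl and 58.9%, 47.7%, 45.1% and 43.7% in shTHOC5 at 10 to 40 min, since fewer members were counted. With no other annotated gene past the end it was 13.4%, 15.5%, 13.4% and 14.4%, and 13.4%, 12.4%, 15.5% and 12.4%. Without wave peaks at the last position, a setting added after the data were seen, it was 30.5%, 31.4%, 32.1% and 30.8%, and 28.2%, 28.9%, 29.9% and 30.3%.

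The difference between the series was -6.82, -5.59, -5.62 and -3.44 kb as a mean over members at the 4 times, against medians near 0, and -2.23, -1.27, -1.79 and -1.31 kb as a median over members inside the gene in both. Past 5 kb, 241 members were nearer and 112 farther at 20 min. Wave peaks in order and all inside the gene numbered 47 in shCtrl and 104 in shTHOC5. Leaving out 1 release time gave 276 to 338 members in order in shCtrl and 441 to 516 in shTHOC5, since fewer steps had to be in order. The rate ratio was 0.931 as a ratio of means and 0.794 from the neighbour's start in 17 members, the latter added after the data were seen. It was 0.971 to 0.977 without 1 release time. Of wave peaks beyond the end, 81.6%, 82.8%, 83.9% and 81.6% in shCtrl and 82.2%, 81.4%, 82.4% and 83.8% in shTHOC5 were in protein-coding genes, and 96.4%, 96.9%, 96.4% and 95.9%, and 94.8%, 94.9%, 94.8% and 96.5%, in any gene at 100 RPM or more. Within 1 kb of a gene were 91.2% in shCtrl at 10 min and 90.5% in shTHOC5 at 20 min. At 100 RPM or more, 98.2% of opposite-strand cases in shTHOC5 moved away from the neighbour's start, also a setting added after the data were seen. Of 116 alternatives, 55 left the value within its interval or its 1.5-fold range. The causes of the other changes were not tested.

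Wave peaks are calls without an error of their own, and 1 library per time leaves the spread between cultures unknown. The authors' annotation release is not given in the sources used here.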
